A study of Mus musculus with 20 samples.

Results

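The 43 genes described here encode voltage-gated potassium channels, the cytoplasmic beta subunits of the Kv1 channels (Kcnab) and the calcium sensors of the Kv4 channels (Kcnip). They were chosen by family name and found by Ensembl identifier among the 37620 genes of the expression table, by a rule that uses no measured value, although earlier results of these data were known when the family was picked. RNA had been sequenced from Trpv1 neurons of lumbar (L4-5) and sacral (L6-S1) dorsal root ganglia (DRG) in 20 libraries, namely 5 male lumbar, 5 male sacral, 5 female lumbar and 5 female sacral. All donors, at both levels, were homozygous for the reporter allele Trpv1tm2Bbm, which places a nuclear beta-galactosidase under the Trpv1 gene, were 6 to 8 weeks old and had received no treatment that the labels name. Cells were dissociated, given a substrate that turns fluorescent where beta-galactosidase is present, and only the brightest of them were sorted, so dimmer cells were left out. Each donor label carries 2 animal numbers, and whether cells of more than 1 mouse were pooled is not given in the sources used here. Every donor gave a lumbar and a sacral library, and the main fit compared group means of the levels with donor as a random block.

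Voltage-gated potassium channels open on depolarisation and let potassium leave the cell, which repolarises the membrane and sets how often a sensory neuron can fire. A channel is a tetramer of alpha subunits from one subfamily. Kv1 and Kv4 channels carry currents that act below or near spike threshold, Kv2 and Kv3 channels open at more positive voltages, and Kv7 and ether-a-go-go related channels carry slow currents. The Kcnf, Kcng, Kcns and Kcnv products are called silent subunits because they form no channel of their own and modify Kv2 channels with which they assemble. In nociceptors, loss of Kv1, Kv4 or Kv7 current is known to raise excitability.

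Each library held 44044249 to 66678875 reads on genes, as worked back from the deposited values. Expression is given as log2 RPKM, reads on a gene divided by its length and by a scaling factor of the library. On this scale 1 unit is a doubling, and genes of different length can be compared. For the labelled cell type, 7 markers of peptidergic nociceptors were read. All had a value in all 20 libraries, which does not by itself establish the cell type. Calca was the most abundant of them, at a mean of 9.90, and Trpv1 itself was at 3.74 in lumbar and 4.70 in sacral libraries. The mean of 10 markers of satellite glia and Schwann cells, led by Pmp22, was higher in lumbar libraries in all 10 donors (5.70 to 6.82 against 4.76 to 6.01, difference 0.94, exact sign-flip permutation test over donors, two-sided p = 0.00195, the smallest that 10 pairs allow). Pmp22 was at a mean of 9.54, close to Calca. The log2 of the summed RPKM of the 10 glial markers was 10.98 to 11.96 in lumbar and 10.28 to 11.03 in sacral libraries. For the 7 nociceptor markers it was 10.62 to 11.20 and 10.88 to 11.36, so glial RNA was abundant in these libraries. The share of reads on mitochondrial genes was also higher in lumbar libraries in all 10 donors, at 37.0 to 60.2% against 21.4 to 41.4%. The mean of 6 pan-neuronal markers, led by Stmn2, was lower in lumbar libraries in all 10 donors, by 0.47 on average. Endothelial and immune marker means were 0.90 and 0.97 higher in lumbar libraries, each in 10 of 10 donors (1.76 against 0.86, and 0.17 against -0.80). Of those tested, 4 of 5 endothelial and 2 of 4 immune genes were called towards lumbar DRG (15.3% of all tested genes). The red cell mean was 1.34 higher (-0.40 against -1.74, 9 of 10 donors). That of large myelinated neurons was 0.44 higher (8 of 10 donors), with 2 of 5 tested genes called. Genes with a value in all libraries made up these means, namely 5 of 5 endothelial, 6 of 7 immune, 4 of 5 red cell and 5 of 7 large neuron markers. The most abundant genes of these lists were Cdh5, Lyz2, Hbb-b1 and Nefh, and Calb2, a marker of large neurons, had no value in 14 libraries. In such bulk libraries fewer cells of a type and less RNA per cell cannot be told apart.

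Of the 43 genes, 38 had a value in all 20 libraries, and the first 28 in the order of mean level lay above a log2 RPKM of 0. The order was led by the calcium sensors Kcnip4 (mean 5.22, SD 0.51, n = 20) and Kcnip3 (5.17, SD 0.28), which lay above 94.6% and 94.4% of all genes with a value in every library. Kcnd1, a Kv4 alpha subunit with which these sensors assemble, was the third at 5.01, and Kcnab2 the fourth at 4.93. Among Kv1 alpha subunits the order was Kcna2 (4.68), Kcna6 (4.31), Kcna1 (3.70) and Kcna4 (2.35). Neighbours in the order mostly differed by less than the SD of their difference over the 20 libraries, the exceptions being Kcna2 over Kcna6 (0.36 against an SD of 0.36) and Kcna4 over Kcnh1 (0.59 against 0.31). Kcnb2, Kcnd3 (3.99) and the silent subunit Kcng3 (3.83) followed Kcna6.

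**Figure D1:**
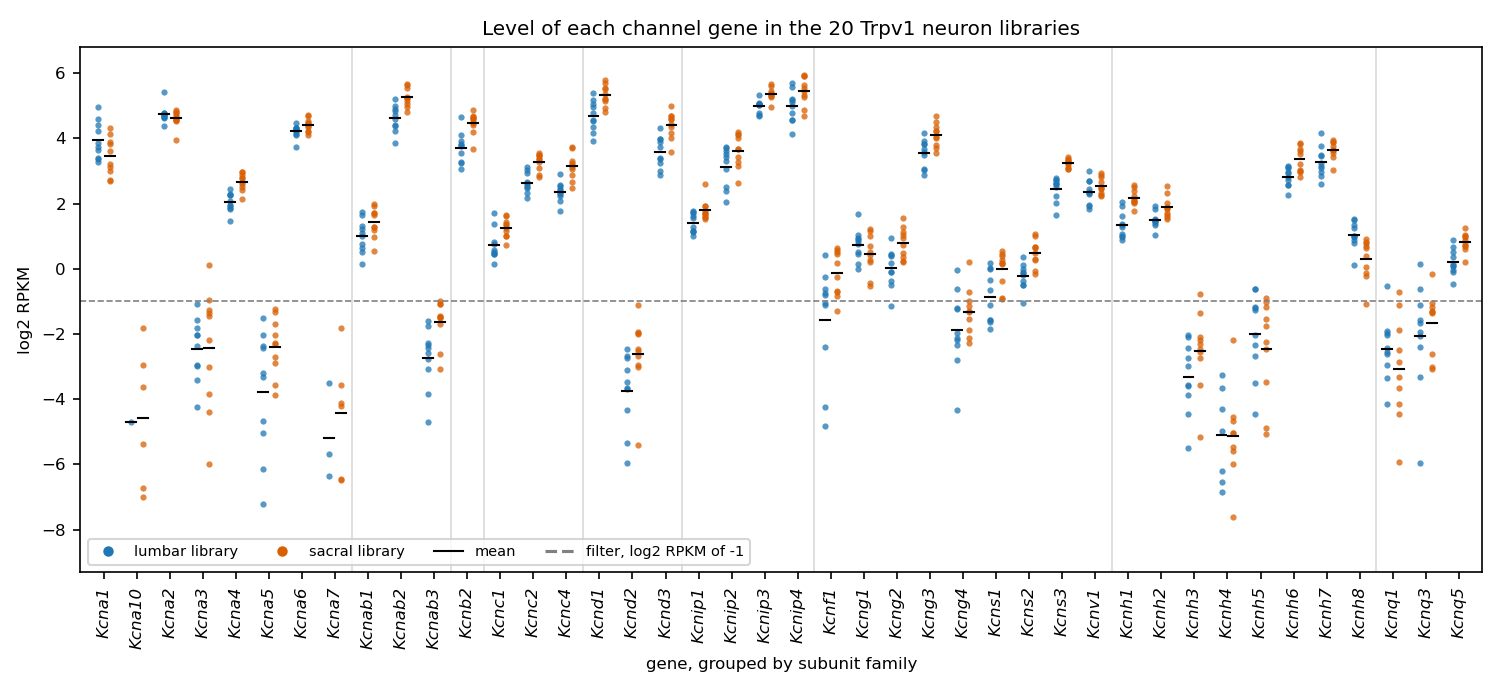
Log2 RPKM (vertical axis) of 42 channel genes in each of the 10 lumbar and 10 sacral libraries, with the mean of each level as a black bar and families separated by grey lines. Kcnv2, with values in 2 libraries, is not drawn. Kcnip4, Kcnip3, Kcnd1 and Kcnab2 sit at the top, and the means of the other 11 untested genes lie below the dashed filter line at -1 at both levels.

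Tested between the levels were 31 of the 43 genes, those with a group mean over -1 (log2 RPKM) in 1 or more of the 4 groups of sex and level. At an adjusted p of at most 0.05 from limma, 27 of the 31 differed, where 45.6% of all 16304 tested genes did. Of these, 25 were upregulated in sacral DRG (background 30.3%) and 2, Kcna1 and Kcnh8, in lumbar DRG (background 15.3%). The 4 tested genes that did not pass were Kcna2, Kcng1, Kcng4 and Kcnv1. 29 of the 31 were above the filter in all 4 groups, and Kcnf1 and Kcng4 in 3 groups and 1 group. Kcnf1 alone exceeded 1 on the log2 scale. In 13 of the 27 genes all 10 donors went the same way, 12 towards sacral DRG (background 13.6%) and Kcna1 towards lumbar DRG, where 19.7% of all tested genes were called with such agreement. Only Kcns3 had lumbar and sacral libraries that did not overlap at all, 1 of 31 genes against a background of 1.61%.

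**Figure D2:**
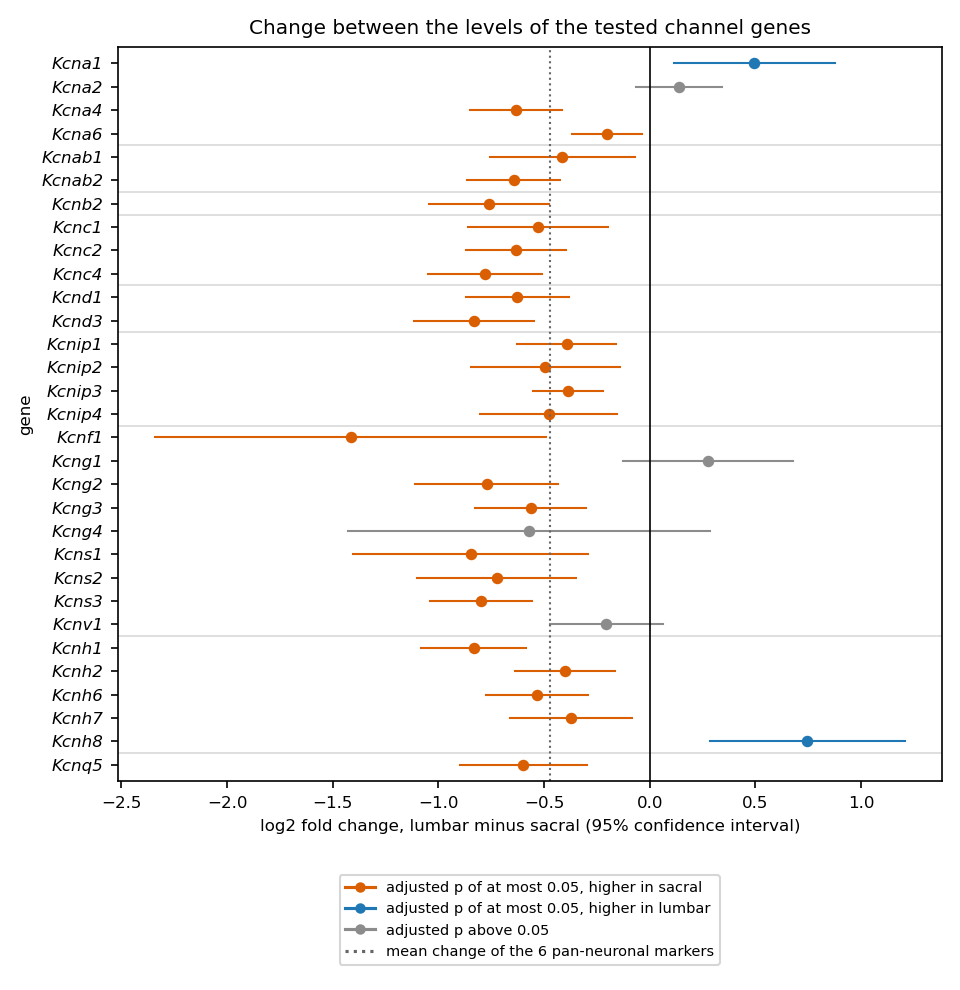
Log2 fold change, lumbar minus sacral (horizontal axis), with its 95% confidence interval from limma for the 31 tested channel genes. Genes to the left of the solid line were higher in sacral DRG, and the dotted line marks the mean change of the 6 pan-neuronal markers, -0.47. Kcna1 and Kcnh8 are the called genes to the right of 0. Scaling to the pan-neuronal markers moves every gene right by 0.47.

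The median log2 fold change of the tested channel genes was -0.56, against -0.11 over all tested genes. The median of all genes depends on the scaling between libraries: it was 0.0012 with trimmed mean of M values (TMM) factors, a shift of 0.11, and 0.36 when libraries were scaled to the pan-neuronal marker mean, a shift of 0.47. Both scalings shift all genes of a library alike, so the distance of the channel genes from that median, -0.45, cannot change with them, and it was -0.39 after quantile normalization and -0.085 with the glial marker mean as a covariate. Of the called genes of the whole table, 66.5% were higher in sacral DRG as deposited, and 51.1% with TMM factors, 50.4% with voom, 52.8% after quantile normalization and 7.32% with pan-neuronal scaling. With TMM factors 21 channel genes passed towards sacral DRG (background 22%) and 3 towards lumbar DRG (Kcna1, Kcna2 and Kcnh8, background 21.1%), and the losses were Kcna6, Kcnab1, Kcnh7 and Kcnip2. Averaged over the 31 tested genes, log2 RPKM was lower in the lumbar library in each of the 10 donors, by 0.18 to 0.82, and by 0.48 on average. The corresponding average was 0.47 for the pan-neuronal markers and 0.63 for the nociceptor markers. When libraries were scaled to the pan-neuronal markers, a choice made after the values were seen, 5 channel genes were upregulated in sacral DRG (Kcnab2, Kcnb2, Kcnd3, Kcnh1 and Kcns3, background 4.11%) and 6 in lumbar DRG (Kcna1, Kcna2, Kcna6, Kcng1, Kcnh8 and Kcnv1, background 52%), where 56.1% of all genes passed. With the glial marker mean as a covariate 0 channel genes passed from limma, 3 (Kcna1, Kcnc4 and Kcns3, all lower in lumbar DRG) had an unadjusted p under 0.05, where 12.2% of all tested genes did, and 1.26% of all tested genes passed (1.05% towards sacral DRG). Since the glial mean was higher in the lumbar library of every donor, level and glial RNA cannot be told apart by that fit.

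The same count can be read from other fits beside its own background. With TMM factors 24 channel genes passed, where 43% of all genes did. With voom on worked-back reads 25 passed (42.9%), 22 of them towards sacral DRG (21.6%). After quantile normalization 22 passed (39.8%), 19 towards sacral DRG (21.1%). Without the filter 27 of 40 passed (38.6%), 25 towards sacral DRG (24.8%). With donor as a fixed effect, which compares the levels within donors, 26 passed (7171 of 16369 genes) and Kcna6 was lost. Of these, 24 passed towards sacral DRG (4689 of 16369 genes). In males alone 17 passed (29.1%), 16 towards sacral DRG (18.6%), and in females alone 15 (23.4%), all 15 towards sacral DRG (16%). Without donors M2 and F4, which gave the lumbar and the sacral library with the largest mitochondrial share, 22 passed (40.2%), 21 towards sacral DRG (27.8%), and Kcna1, Kcnab1, Kcnc1, Kcnf1 and Kcns1 were lost. In each of these fits the channel genes were called more often towards sacral DRG than all genes were, and no test of that difference was made.

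**Figure D3:**
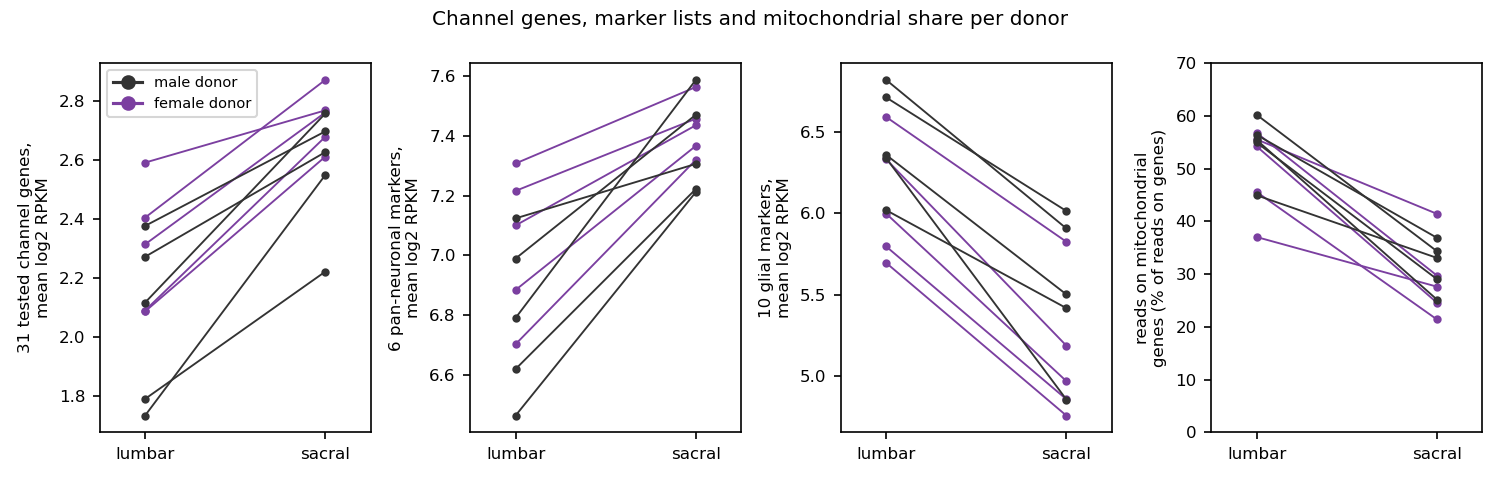
Mean log2 RPKM of the 31 tested channel genes, of 6 pan-neuronal and of 10 glial markers, and the share of reads on mitochondrial genes in percent, with 1 line per donor from its lumbar to its sacral library. Channel genes and pan-neuronal markers go up from lumbar to sacral in all 10 donors, and glial markers and mitochondrial share go down in all 10.

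Promoter windows were read for the channel genes that RefSeq lists with a start site (GRCm38.p6, a later build than the mm9 of the expression table), which matched 31 of the 43 genes with 45 windows. Shown are the 250 bases before the start of 4 genes with a single start. Kcna4, Kcnd3 and Kcnh1 were upregulated in sacral DRG in all 10 donors, and Kcnh8 was the Kcnh gene with the opposite direction. All 4 lie on the plus strand, at chr2:107290339-107290588, chr3:105451640-105451889, chr1:192190527-192190776 and chr17:52602459-52602708. Capitals mark matches, on either strand, to the TATA box TATAAA, the CCAAT box, the GC box GGGCGG, the E-box CACGTG, the cAMP response core TGACG or TTCAGCACC, the left part of the RE1 element, none of which overlap in these windows.
Kcna4: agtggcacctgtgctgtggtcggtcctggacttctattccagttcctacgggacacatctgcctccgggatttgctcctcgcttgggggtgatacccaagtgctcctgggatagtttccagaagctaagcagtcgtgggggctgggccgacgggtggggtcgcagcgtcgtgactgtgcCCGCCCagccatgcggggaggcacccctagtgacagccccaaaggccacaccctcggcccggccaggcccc
Kcnd3: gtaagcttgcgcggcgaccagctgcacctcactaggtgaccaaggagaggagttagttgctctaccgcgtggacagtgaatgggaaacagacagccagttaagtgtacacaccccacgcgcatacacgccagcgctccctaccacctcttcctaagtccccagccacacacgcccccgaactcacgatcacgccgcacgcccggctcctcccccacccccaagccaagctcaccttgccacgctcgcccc
Kcnh1: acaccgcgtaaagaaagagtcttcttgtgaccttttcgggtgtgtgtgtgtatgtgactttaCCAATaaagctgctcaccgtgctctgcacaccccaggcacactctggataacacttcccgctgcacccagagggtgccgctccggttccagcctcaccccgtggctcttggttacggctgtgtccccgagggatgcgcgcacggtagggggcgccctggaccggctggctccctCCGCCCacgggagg
Kcnh8: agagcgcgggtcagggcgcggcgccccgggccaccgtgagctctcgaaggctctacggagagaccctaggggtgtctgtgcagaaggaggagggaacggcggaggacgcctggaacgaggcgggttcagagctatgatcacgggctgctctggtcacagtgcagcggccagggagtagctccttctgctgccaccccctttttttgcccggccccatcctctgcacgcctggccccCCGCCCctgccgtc
The GC box stood in 22 of the 45 windows (48.9%) and in 32.7% of all 32841 windows of the same length. CCAAT was in 28.9% against 33.9%, CACGTG in 6.67% against 6.02%, and TGACG in 13.3% against 17.8%. TATAAA was in 0 of the 45 against 12.4%, and TTCAGCACC in 1 of 45 against 0.301%. The median GC content was 60.4% in the 45 windows and 52.4% in all windows, and windows of one gene share sequence. The printed windows of Kcna4 and Kcnh8, which changed in opposite directions, each hold a GC box, and that of Kcnd3 holds none of these motifs.

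Kv1 alpha subunits line the axon beside the nodes and set the spike threshold, and the tested members of this family were called in both directions. Kcna4, whose product forms a fast inactivating channel (ENSMUSG00000042604, chr2:107130796-107138659 of mm9), was upregulated in sacral DRG. Its log2 RPKM ranged over 1.45 to 2.45 (median 2.01) in the 10 lumbar libraries and 2.15 to 2.96 (median 2.72) in the 10 sacral ones (log2 fold change -0.63, standard error 0.11, adjusted p = 7.95e-05). Kcna4 was higher in the sacral library of each donor, 1.55-fold on average, and only the edges of the 2 levels overlapped. With pan-neuronal scaling it lay at -0.16 (adjusted p = 0.23) and did not pass. Kcna1, which encodes a low-threshold channel (ENSMUSG00000047976, chr6:126586481-126595819 of mm9), was upregulated in lumbar DRG. Its values were 3.28 to 4.95 (median 3.80) in lumbar and 2.69 to 4.30 (median 3.41) in sacral libraries (log2 fold change 0.50, standard error 0.18, adjusted p = 0.0319). Kcna1 was higher in the lumbar library of each donor, by 0.086 to 1.13, while the levels overlapped widely. This call was near the threshold. It was lost without the donor block (adjusted p = 0.0675), without any one of donors F2, F4, F5, M3, M4, M5 (log2 fold change 0.43 to 0.50, adjusted p = 0.0516 to 0.0796), and the sign turned to -0.51 with the glial covariate.

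Kcna2, the most abundant Kv1 subunit, was at 4.75 ± 0.27 (SD, n = 10) in lumbar and 4.61 ± 0.26 in sacral libraries. The difference of 0.14 (95% interval -0.066 to 0.34, adjusted p = 0.26) did not pass. It passed as higher in lumbar DRG with TMM factors (0.25, adjusted p = 0.0246), after quantile normalization and with pan-neuronal scaling. Kcna6 passed at -0.20 (adjusted p = 0.0413) towards sacral DRG, but lay at 0.0062 after quantile normalization and at 0.27 with pan-neuronal scaling, and failed without the donor block (adjusted p = 0.0674) or without any one of F1, F2, F3, F5, M1, M4, M5 (0.053 to 0.11). It shares exon bases with Gm17456 on the opposite strand. Within a library, where the scaling cancels, the log2 ratio of Kcna1 to Kcna4 was 0.83 to 3.12 in lumbar and -0.19 to 1.98 in sacral libraries. Since Kcna1 was higher in lumbar and Kcna4 in sacral DRG in every donor, the direction of this ratio was fixed by the choice of the pair, and its mean difference of 1.13 is given as a description. The ratio of Kcna2 to Kcna4 was 2.21 to 3.50 in lumbar and 1.66 to 2.18 in sacral libraries, 0.77 apart on average. This pair was also picked after the values were seen, so its ratio too is only described.

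The Kcnab products dock on the inner face of Kv1 channels, and Kcnab2 also carries Kv1 channels to the axon. Kcnab2 (ENSMUSG00000028931, chr4:151764851-151851980 of mm9) was upregulated in sacral DRG. It measured 3.84 to 5.21 (median 4.66) in lumbar and 4.80 to 5.67 (median 5.24) in sacral libraries (log2 fold change -0.64, standard error 0.11, adjusted p = 7.54e-05). The sacral library held more in 10 of 10 donors, 1.56-fold on average, with some overlap of the levels, and Kcnab2 remained called with pan-neuronal scaling at -0.17 (adjusted p = 0.0258). It shares exon bases with Gm16334 on the same strand, and how reads were divided between them is uncertain. Kcnab1, which speeds the inactivation of Kv1 channels, passed at -0.41 (adjusted p = 0.0466) towards sacral DRG, but at 0.060 with pan-neuronal scaling and 0.23 with the glial covariate its sign turned. It also failed with TMM factors (adjusted p = 0.12), without the donor block (0.0814), and without any one of F3, F4, F5, M3, M4, M5 (0.0506 to 0.13).

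Kv2 channels provide the slow delayed current that shapes repetitive firing. Kcnb2 (ENSMUSG00000092083, chr1:15302533-15701710 of mm9) was upregulated in sacral DRG, with 3.05 to 4.64 (median 3.78) in lumbar and 3.68 to 4.87 (median 4.59) in sacral libraries (log2 fold change -0.76, standard error 0.14, adjusted p = 0.000162). Each donor had more Kcnb2 in sacral DRG, 1.69-fold on average, although the lumbar library of donor F2 exceeded the median sacral one. With pan-neuronal scaling it remained called at -0.29 (adjusted p = 0.0249). A second Ensembl gene with this symbol lies downstream on the same strand, was kept apart, and gave -0.70 (adjusted p = 0.00122). This second gene was higher in sacral DRG in 9 of 10 donors. With pan-neuronal scaling it was at -0.22 (adjusted p = 0.12) and did not pass.

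Of the 10 silent subunits, 9 were tested, 6 were upregulated in sacral DRG (background 30.3%) and none in lumbar DRG (background 15.3%). Kcns3 (ENSMUSG00000043673, chr12:11097008-11157648 of mm9) had the lowest adjusted p of the family. It lay at 1.64 to 2.79 (median 2.59) in lumbar and at 3.05 to 3.42 (median 3.26) in sacral libraries (log2 fold change -0.80, standard error 0.12, adjusted p = 2.33e-05). Every sacral library was above every lumbar library, and all 10 donors agreed, for a 1.74-fold difference. Its lumbar minimum was donor F4 with 345 reads, and with pan-neuronal scaling Kcns3 was called at -0.32. Kcng2 (ENSMUSG00000059852, chr18:80492368-80493072 of mm9, a single short span in this annotation) was -1.15 to 0.95 (median 0.046) in lumbar and 0.21 to 1.57 (median 0.83) in sacral libraries (log2 fold change -0.77, standard error 0.16, adjusted p = 0.000665). It too was higher in sacral DRG in 10 of 10 donors, on only 15 to 141 reads per library. With pan-neuronal scaling Kcng2 lay at -0.30 (adjusted p = 0.0773). Kcng3, the most abundant silent subunit, rose by 1.48-fold in sacral DRG (log2 fold change -0.56, standard error 0.13, adjusted p = 0.0012, 9 of 10 donors). With pan-neuronal scaling it lay at -0.091 (adjusted p = 0.49), and only Kcns3 of the silent subunits remained called towards sacral DRG.

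Kcnf1 had the largest change of the tested channel genes, -1.42 with a standard error of 0.44 (adjusted p = 0.0132), with -4.25 and -4.82 in the lumbar libraries of donors M2 and M4 and -2.39 to 0.42 in the other lumbar ones. Its donor differences ran from -5.38 to 0.42 on 8 to 496 reads, and 9 of 10 donors had more in sacral DRG. Without donors M2 and F4 it was -1.15 (adjusted p = 0.0754). Kcns1, of which a human variant is known for its link to pain, changed by -0.85 (adjusted p = 0.0135) in 9 of 10 donors, and failed without donor M4 (adjusted p = 0.0523) and without M2 and F4 (0.0563). Kcns2 changed by -0.72 (adjusted p = 0.00278). Kcng1 (0.28, 95% interval -0.13 to 0.68, adjusted p = 0.25), Kcng4 (-0.57, -1.43 to 0.29, 0.27) and Kcnv1 (-0.21, -0.47 to 0.061, 0.20) did not pass. With pan-neuronal scaling Kcng1 (0.75) and Kcnv1 (0.27) passed towards lumbar DRG.

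Kv3 channels open and close fast and permit brief spikes at high rates. All 3 Kcnc genes examined were upregulated in sacral DRG (background 30.3%). Kcnc4 (ENSMUSG00000027895, chr3:107241221-107261816 of mm9), which encodes an inactivating Kv3 channel, was at 1.76 to 2.91 (median 2.38) in lumbar and 2.49 to 3.73 (median 3.15) in sacral libraries (log2 fold change -0.78, standard error 0.13, adjusted p = 7.83e-05). Kcnc2 (ENSMUSG00000035681, chr10:111708179-111903360 of mm9) had 2.17 to 3.12 (median 2.60) in lumbar and 2.81 to 3.54 (median 3.37) in sacral libraries (log2 fold change -0.63, standard error 0.11, adjusted p = 0.000177). Both were higher in the sacral library of all 10 donors, 1.72-fold and 1.55-fold, with overlap at the edges. Kcnc1 was the least abundant of the 3 and changed by -0.53 (adjusted p = 0.0103) in 8 of 10 donors, and without donors M2 and F4 it failed narrowly (adjusted p = 0.0503). With pan-neuronal scaling no Kcnc gene passed, at -0.31 (adjusted p = 0.0644) for Kcnc4, -0.16 (0.15) for Kcnc2 and -0.054 (0.76) for Kcnc1. The ratio of Kcnc2 to Kcnc4 within a library differed by 0.15 between the levels, with an SD of 0.48 over donors.

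Kv4 channels carry the A-type current, which delays the first spike, and reach the membrane with Kcnip calcium sensors and Dpp6 or Dpp10. Kcnd3 (ENSMUSG00000040896, chr3:105255248-105476920 of mm9) was upregulated in sacral DRG. It spanned 2.88 to 4.31 (median 3.57) in lumbar and 3.57 to 4.98 (median 4.51) in sacral libraries (log2 fold change -0.83, standard error 0.14, adjusted p = 7.36e-05). Kcnd1 (ENSMUSG00000009731, chrX:7399415-7415406 of mm9), the more abundant of them, spanned 3.91 to 5.38 (median 4.68) in lumbar and 4.82 to 5.78 (median 5.29) in sacral libraries (log2 fold change -0.63, standard error 0.12, adjusted p = 0.000239). Both genes were higher in the sacral library of each donor, 1.78-fold and 1.54-fold, and the levels overlapped. With pan-neuronal scaling Kcnd3 remained called at -0.36 (adjusted p = 0.0048) and Kcnd1 was at -0.15 (0.0853). Kcnd3 shares exon bases with 1700095B22Rik on the opposite strand.

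All 4 Kcnip genes passed towards sacral DRG (background 30.3%). Their changes were smaller than those of Kcnd1 and Kcnd3, a difference that was not tested. With pan-neuronal scaling none passed, at 0.079, -0.022, 0.085 and -0.0061 for Kcnip1 to Kcnip4. Kcnip3, also known as the transcriptional repressor DREAM (ENSMUSG00000079056, chr2:127282234-127347830 of mm9), had the lowest adjusted p. It lay at 4.69 to 5.32 (median 5.04) in lumbar and 4.95 to 5.66 (median 5.36) in sacral libraries (log2 fold change -0.39, standard error 0.080, adjusted p = 0.000542). The sacral library was higher in 9 of 10 donors. Kcnip4 changed by -0.48 (adjusted p = 0.0163), Kcnip2 by -0.49 (adjusted p = 0.0217) and Kcnip1 by -0.39 (adjusted p = 0.0078). Kcnip4 failed without donor F3 (-0.36, adjusted p = 0.0624), and Kcnip2 with TMM factors (0.059) and without F3, F4 or M4 (0.0546 to 0.0733). After quantile normalization Kcnip2 (-0.32, adjusted p = 0.12), Kcnip3 (-0.17, 0.0558) and Kcnip4 (-0.27, 0.12) failed as well. Dpp6, a partner that speeds Kv4 gating, was upregulated in sacral DRG in 10 of 10 donors (log2 fold change -0.80, standard error 0.12, adjusted p = 2.19e-05). Within a library the ratio of Kcnd3 to Dpp6 differed between the levels by -0.029 on average, with an SD of 0.27 over the 10 donors.

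The Kcnh genes encode the ether-a-go-go (Kcnh1, Kcnh5), ERG (Kcnh2, Kcnh6, Kcnh7) and ELK (Kcnh3, Kcnh4, Kcnh8) channels. The 5 tested were all called (background 45.6%), 4 towards sacral DRG (30.3%) and 1 towards lumbar DRG (15.3%). Kcnh1 (ENSMUSG00000058248, chr1:194014666-194334041 of mm9) had the lowest adjusted p of the 43 genes. Its log2 RPKM was 0.88 to 2.04 (median 1.30) in lumbar and 1.77 to 2.57 (median 2.11) in sacral libraries (log2 fold change -0.83, standard error 0.12, adjusted p = 1.99e-05). Each of the 10 donors had more Kcnh1 in sacral DRG, 1.78-fold, and the levels overlapped in a few libraries. With pan-neuronal scaling it remained called at -0.36 (adjusted p = 0.0027). Kcnh6 (ENSMUSG00000001901, chr11:105869438-105895863 of mm9), an ERG channel, was 2.27 to 3.15 (median 2.88) in lumbar and 2.83 to 3.85 (median 3.37) in sacral libraries (log2 fold change -0.53, standard error 0.12, adjusted p = 0.000886). Its 10 donors also agreed, though the smallest difference, of -0.001, was close to 0, and Kcnh6 lay at -0.062 with pan-neuronal scaling and at 0.034 with the glial covariate. Kcnh2 changed by -0.40 (adjusted p = 0.00718) and Kcnh7 by -0.37 (adjusted p = 0.0341) towards sacral DRG, and with pan-neuronal scaling their signs turned, to 0.071 and 0.10. Kcnh7 shares exon bases with Gca on the opposite strand, and failed with TMM factors (adjusted p = 0.0967), without the donor block (0.0648) and without any one of F1, F3, F4, F5, M4, M5 (0.052 to 0.11).

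Kcnh8, an ELK channel (ENSMUSG00000035580, chr17:52865084-53044561 of mm9) went the other way. It lay at 0.11 to 1.51 (median 1.01) in lumbar and -1.09 to 0.92 (median 0.51) in sacral libraries (log2 fold change 0.75, standard error 0.22, adjusted p = 0.00947), on 55 to 296 reads per library. The lumbar library held more in 9 of 10 donors, 1.68-fold on average, and donor differences ran from -0.53 to 2.42. It stayed called towards lumbar DRG with TMM factors (0.86) and with pan-neuronal scaling (1.22), and was at 0.30 (adjusted p = 0.81) with the glial covariate. A second Ensembl gene with this symbol on the opposite strand gave 0.52 (adjusted p = 0.0481). Within a library the log2 ratio of Kcnh8 to Kcnh1 averaged -0.31 in lumbar and -1.89 in sacral libraries, a difference of 1.58. This pair was picked for its opposite directions, so the ratio is given as a description without a p-value.

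Kv7 channels carry the M current, which holds the membrane near rest. Of the Kcnq genes examined only Kcnq5 (ENSMUSG00000028033, chr1:21388484-21952023 of mm9) passed the filter. Its range was -0.46 to 0.89 (median 0.12) in lumbar and 0.20 to 1.26 (median 0.83) in sacral libraries (log2 fold change -0.60, standard error 0.14, adjusted p = 0.00221). Kcnq5 was higher in the sacral library of each donor, 1.51-fold, and the levels overlapped. It shares exon bases with Gm16705 on the opposite strand, and lay at -0.13 (adjusted p = 0.43) with pan-neuronal scaling.

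**Figure D4:**
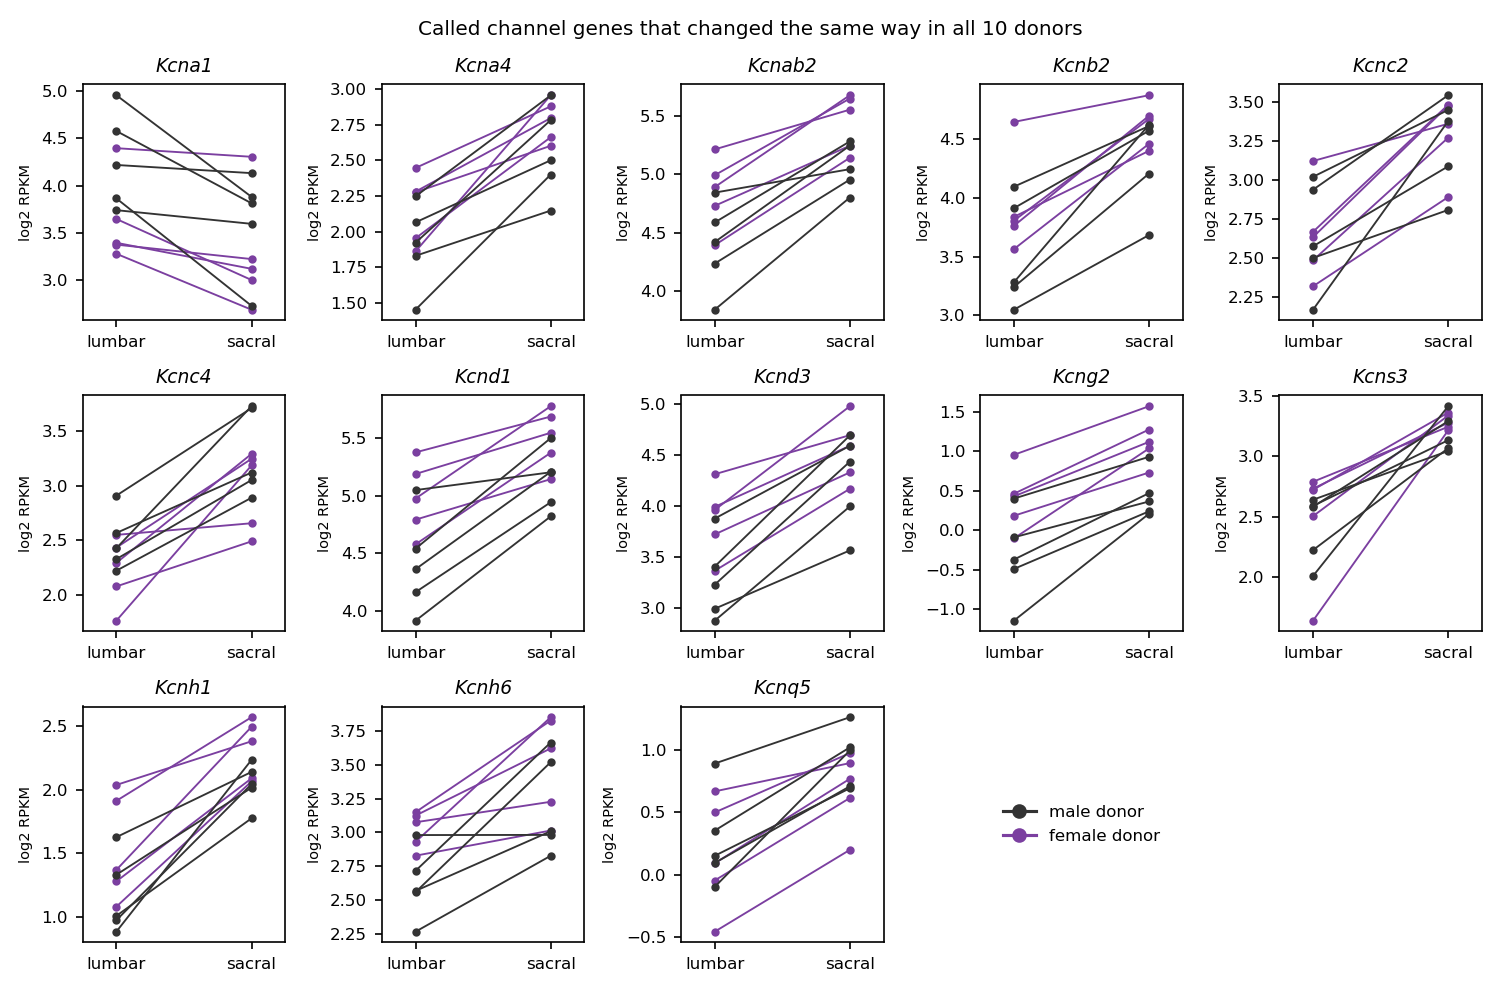
Log2 RPKM (vertical axes, each on its own range) of the 13 called channel genes with 1 direction in every donor, with 1 line per donor from its lumbar to its sacral library. Kcna1 falls and the other 12 rise towards sacral DRG, and Kcns3 is the gene whose levels do not overlap. With pan-neuronal scaling 5 of these 12 (Kcnab2, Kcnb2, Kcnd3, Kcnh1 and Kcns3) remained called, all 12 kept their direction, and Kcna1 kept its own, while with the glial covariate Kcna1 and Kcnh6 changed sign.

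The 12 untested genes were low. Kcna3, Kcna5, Kcnab3, Kcnd2, Kcnh3, Kcnh5 and Kcnq1 had a value in all 20 libraries but a mean below -1 in each group. Of these, Kcna5 alone was higher in the sacral library of every donor (-3.79 ± 1.90 against -2.39 ± 0.89, SD, n = 10 each), on 1 to 74 reads. Without the filter its change was -1.41 (adjusted p = 0.0572), and that of Kcnab3 was -1.09 (0.0192) on 4 to 92 reads, the latter sharing exon bases with Gm16040. Kcnd2, the third Kv4 gene, was at -3.74 ± 1.16 and -2.60 ± 1.13, far below Kcnd1 and Kcnd3 at both levels. Kcna7, Kcna10, Kcnh4 and Kcnq3 were without a value in some libraries, with at most 57, 30, 55 and 150 reads. Kcnv2 had a value in 2 lumbar libraries only, with at most 14 reads.

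Other known partners of these channels were examined as a list of 22 genes that are not among the 43. Of them 19 were tested, 9 were upregulated in sacral DRG (background 30.3%) and 1 in lumbar DRG (15.3%), with a median change of -0.34 against -0.11 over all tested genes. The list set 12 tested genes with the Kv1 complex of the axon, secreted Lgi products among them. Of these, 6 passed towards sacral DRG, 5 of them in all 10 donors (background 13.6%), and 1 towards lumbar DRG. Cntn2 changed by -1.02 (adjusted p = 3.37e-06), Cntnap2 by -0.84 (adjusted p = 5.43e-05) and Epb4.1l3, which anchors them to the cytoskeleton, by -0.74 (adjusted p = 4.84e-05). Adam22 changed by -0.72 (adjusted p = 0.000193), its secreted ligand Lgi1 by -0.66 (adjusted p = 4.36e-05) and Amigo1, a Kv2 partner, by -0.58 (adjusted p = 0.000364). These 6 were higher in the sacral library of every donor. Dpp10 (-0.67) and Dlg4 (-0.37) passed with 9 of 10 donors, and with pan-neuronal scaling Dlg4 lay at 0.10. Lgi4, secreted by Schwann cells, was the exception. It was 3.11 ± 0.46 in lumbar and 1.72 ± 0.56 in sacral libraries, higher in lumbar DRG in all 10 donors, by 1.38 (adjusted p = 4.83e-06), as were the glial markers, and their part in this difference was not tested. Kcne3, Kcne4, Dlg1, Dlg2, Adam23, Lgi2, Lgi3, Ank3 and Pias3 did not pass, and Kcne1, Kcne1l and Kcne2 were below the filter.

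The 2 sexes were compared within each level, and the level difference was compared between the sexes. No channel gene passed in female minus male in lumbar libraries (limma, lowest adjusted p = 0.30, for Kcnd1 at 0.58), where 0.0427% of all genes passed. At an unadjusted p under 0.05 there were 9 of 31 channel genes, against 11.4% of all genes. In sacral libraries 0 passed against a background of 0.0368% (lowest adjusted p = 0.51, for Kcng2 at 0.70, limma), with 2 of 31 at an unadjusted p under 0.05 against 8.09%. The interaction of sex and level gave 0 channel genes and 0 genes in all, with Kcng1 and Kcnip1 at an unadjusted p under 0.05 (background 4.1%). Kcng1 was -0.22 between the levels in males alone and 0.77 in females alone, and Kcnip1 -0.63 and -0.15. With voom on worked-back reads the counts were also 0. At an unadjusted p under 0.05 that fit gave 12 channel genes in lumbar (background 13.1%), 8 in sacral libraries (10.3%) and 3 for the interaction (4.63%).

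**Figure D5:**
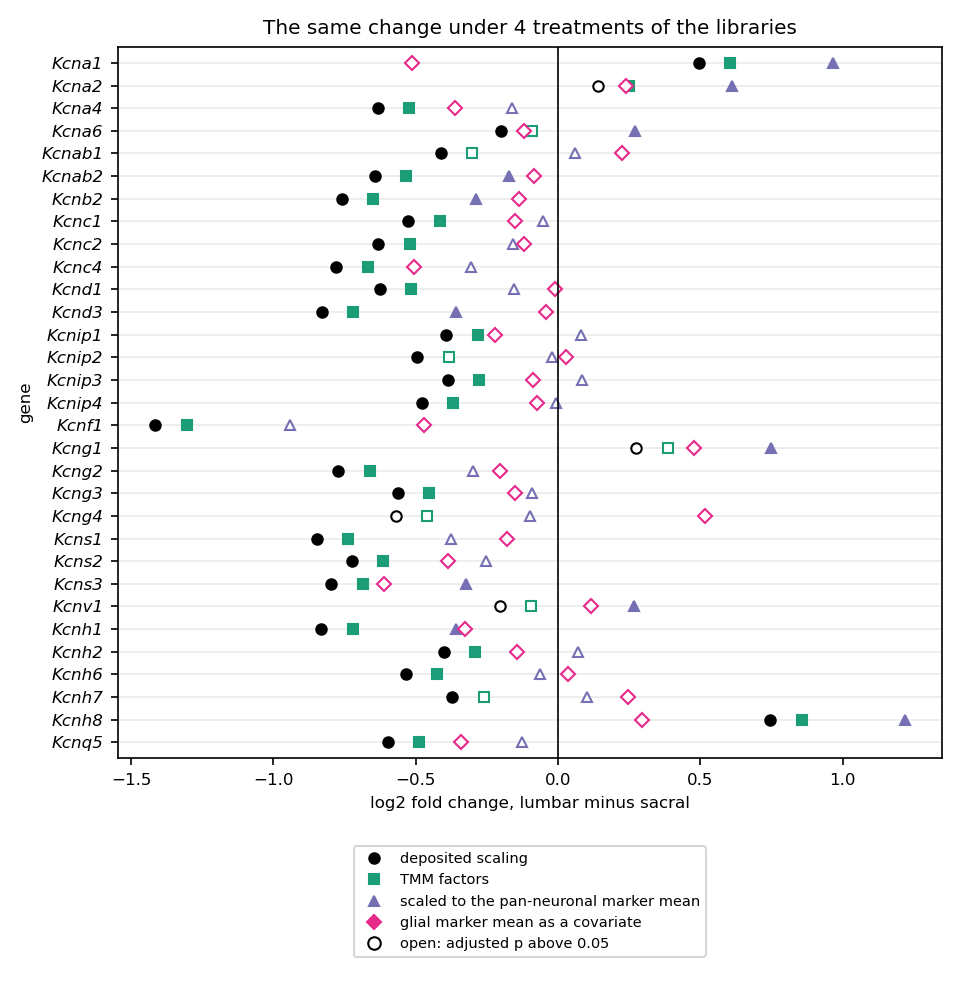
Log2 fold change, lumbar minus sacral (horizontal axis), of the 31 tested channel genes under the deposited scaling, TMM factors, scaling to the pan-neuronal marker mean and a fit with the glial marker mean as a covariate, with filled symbols for an adjusted p of at most 0.05. TMM factors and pan-neuronal scaling move all genes right together, by 0.11 and 0.47. Kcnab2, Kcnb2, Kcnd3, Kcnh1 and Kcns3 stay filled on the left under both, Kcna1 and Kcnh8 on the right, and no symbol of the glial covariate is filled.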

How the data were processed

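RNA of sorted Trpv1 neurons, amplified with the Ovation RNA-Seq v2 kit and made into Nextera XT libraries, had been sequenced in 20 libraries. The authors aligned reads to mm9 with Subread, counted them per gene with featureCounts, and used edgeR and limma (Subread 1.18 and 1.20.6, R 3.2.1 and 3.2.2, limma 3.26.9 and edgeR 3.12.1 in the submitters' processing notes, which also name GRCh37.p7). The deposited table holds log2 RPKM of 37620 genes, with empty cells where a gene had no value. The paper describes a TMM adjustment of library size before RPKM. The median over genes was equal in all libraries, a step not described in the sources used here. The TMM factors of the alternative fits were worked out anew from the worked-back reads. The deposited log2 RPKM values stepped by whole reads (within 0.01, in 26308 of 26308 genes with a value in 2 or more libraries), which gave the reads on genes, 44044249 to 66678875 per library. Whether counting used strand is not given in the sources used here, so the 6 channel genes that share exon bases with another gene are uncertain.

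Genes with a mean log2 RPKM above -1 and at least 3 values in at least 1 of the 4 groups were fitted with limma 3.58.1 (R 4.3.3, statmod 1.5.0) as 4 group means with a variance trend and with donor as a random block (correlation 0.173). Contrasts were lumbar minus sacral, female minus male within a level, and their interaction, with Benjamini-Hochberg adjustment over all tested genes and a threshold of 0.05. Libraries were paired by the animal numbers that the lumbar and the sacral library of a donor share in the labels. Over 15318 genes, deviations from group means correlated by 0.18 on average (0.04 to 0.30) between libraries of 1 donor, above 0.1 in 8 of 10 donors, and by -0.04 between different donors of the same sex. Marker means were compared by exact two-sided sign-flip permutation tests over the 10 donors. The limma p-values rest on the spread of libraries around their group means, moderated over all genes, with 1 donor correlation shared by all genes. The sign-flip p-values rest on the differences of the 10 donors. Each donor may hold cells of more than 1 mouse. The scripts were tested on simulated data.

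Values in full are given for channel genes past the threshold with all 10 donors in 1 direction and for the gene with the lowest adjusted p of each of 9 families. The channel genes and all lists were chosen with earlier results of these data known. Alternatives covered the filter, pseudocounts of 0.1 and 1, quantile and TMM scaling, voom on worked-back reads, the donor model, the variance trend, array weights, a glial covariate, each sex alone and each donor left out. Python 3.11.15 with pandas 2.3.3, numpy 2.4.6, scipy 1.17.1 and matplotlib 3.10.9 was used for the rest. Second Ensembl identifiers of Kcnb2 and Kcnh8 were kept apart.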

Additional observations from a re-analysis of the deposited data

Results flagged for a closer look

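A library was set apart from the other 4 of its group by Dixon's criterion (a gap to the nearest value too large for the range of the group) in 7 of the 124 groups of tested channel genes examined, and chance gives about 1 in 20. All 7 are log2 RPKM values and none was left out. Kcna2 was 5.42 in the male lumbar library of donor M3, where the other male lumbar libraries held 4.70 to 4.79. Kcna2 was also low, at 3.93, in the male sacral library of M2, against 4.58 to 4.79 in the others. Kcnb2 stood at 4.64 in the female lumbar library of F2 against 3.56 to 3.84. Donor M3 also had the outlying values of Kcnc1 in lumbar (1.71 against 0.45 to 0.81) and of Kcnip1 in sacral DRG (2.61 against 1.68 to 1.91). Kcnip3 was 5.66 in the female sacral library of F5 against 5.27 to 5.37, and Kcns3 was 1.64 in the female lumbar library of F4 against 2.50 to 2.79. In 0 of the tested channel genes did all male donors go one way between the levels and all female donors the other.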

How the results depend on the processing

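The comparison of lumbar with sacral DRG was repeated under 26 other settings, of which 2 (scaling to the pan-neuronal marker mean, and leaving out donors M2 and F4) were added after the data were seen. The count of 27 channel genes, 25 higher in sacral and 2 in lumbar DRG, became 0 with the glial mean as a covariate, 11 (5 and 6) with pan-neuronal scaling, 17 (16 and 1) in males alone and 15 (15 and 0) in females alone. Of all tested genes 45.6% passed in the main fit, and 1.26%, 56.1%, 29.1% and 23.4% in these settings, in that order. The count higher in lumbar DRG was 1 with no replicate block and 1 without donors M2 and F4, and 1 to 2 when each donor was left out in turn, where the count in either direction was 21 to 27. With a donor left out, 6623 (without M5) to 7475 (without F2) of all genes passed, of 16334 and 16330 tested. With no replicate block, that is without the pairing of libraries by donor, 23 channel genes passed, and Kcna1, Kcna6, Kcnab1 and Kcnh7 were lost. In that fit 6577 of all 16304 tested genes passed, 2154 of them towards lumbar DRG. Of the partners, 9 passed towards sacral and 1 towards lumbar DRG in the main fit (30.3% and 15.3% of all tested genes). With the glial covariate 0 and 0 passed (1.26% in either direction). With pan-neuronal scaling 5 and 6 passed (4.11% and 52%). The lumbar count was 4 with TMM factors (21.1%) and 4 with voom (3493 of 16422 genes). It was 3 with donor as a fixed effect (2482 of 16369) and 2 in males alone (1669 of 15978). The interaction and the sex comparisons gave 0 channel genes under each setting run. Signs turned as follows. With pan-neuronal scaling the log2 fold changes were Kcna6 0.27, Kcnab1 0.060, Kcnh2 0.071, Kcnh7 0.10, Kcnip1 0.079, Kcnip3 0.085, Kcnv1 0.27, Kcne3 0.26, Kcne4 0.38, Dlg2 0.13, Dlg4 0.10, Adam23 0.35, Ank3 0.38 and Pias3 0.36. With the glial covariate they were Kcna1 -0.51, Kcnab1 0.23, Kcng4 0.52, Kcnh6 0.034, Kcnh7 0.25, Kcnip2 0.027, Kcnv1 0.12, Dlg1 -0.17, Dlg2 0.22 and Adam23 0.24. After quantile normalization Kcna6 was 0.0062, Adam23 0.045 and Ank3 0.13. In males alone Kcng1 was -0.22, Kcne4 0.46 and Adam23 0.21, and in females alone Kcna2 was -0.063, Lgi3 -0.29 and Ank3 0.0017. Ank3 was 0.018 with TMM factors and 0.018 with voom. Kcne4 was 0.0055 with a pseudocount of 1, 0.021 with TMM factors, 0.071 with array quality weights, and -0.28 to 0.13 when each donor was left out in turn (above 0 without F2 or M1). The cause was not tested. Reads of 15 to 141 per library for Kcng2 and 8 to 496 for Kcnf1 limit the precision of these low genes.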
